A study of Mus musculus with 16 samples.

Results

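Olfr922, Olfr923, Olfr958 and Olfr982 are 4 mouse odorant receptor genes that lie in the large receptor cluster of chromosome 9, out of 19505 genes and 1081 odorant receptor genes measured. They were chosen by name with values of these arrays known, and each was read from the single probe set annotated to it. Which values chose them is not stated. The smoke differences of both sorted fractions were taken to have done so, and are described below without a test. A test is given only for the GFP+ minus GFP- difference averaged over both exposures, a contrast orthogonal to the smoke differences, and its p-values rest on the assumption that the choice did not use it. It is not independent of the GFP+ minus GFP- difference within either exposure, which the choice may also have used.

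The arrays came from S100a5-tauGFP mice, in which a green fluorescent reporter is driven from S100a5, which encodes a calcium-binding protein and is expressed more strongly in active olfactory neurons. Mice of both sexes, 7 to 12 weeks old, were held singly in clean air chambers for 40 h and received, from 26 h on, 10 s pulses every 20 min of cigarette smoke odour or of filtered air (vehicle). Olfactory mucosa of 3 mice was pooled, dissociated and sorted, so that each of 8 pools gave 1 GFP+ and 1 GFP- array. The 4 groups of 4 arrays were smoke GFP+, vehicle GFP+, smoke GFP- and vehicle GFP- cells, and all of them carry the S100a5-tauGFP allele. A replicate is a pool of mice, and precision is limited by having 4 arrays a group. The title and every sample label give cigarette smoke as the odour, although the design text names bourgeonal, and the labels were followed.

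Odorant receptors are G protein-coupled receptors of the cilia of olfactory sensory neurons, where odorant binding raises cyclic AMP through the olfactory G protein and adenylyl cyclase. A mature neuron transcribes a single odorant receptor gene, so the RNA level of a receptor in a sorted fraction depends on how many of its neurons entered that fraction and on how much receptor RNA each holds. In bulk samples fewer cells of a type and less RNA per cell cannot be told apart. The sort on activity-dependent GFP is meant to place the receptors of neurons that responded to the odour in the GFP+ fraction.

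The sequences before the annotated starts are shown because the 4 genes lie in 1 cluster and 3 of them were high in both GFP+ groups. RefSeq (GRCm38.p6) held such a window for 3 of the 4. The windows are the 250 bases before the start, 5′ to 3′ on the gene's strand, at chr9:38815158-38815407 (+) for Olfr922, chr9:39550870-39551119 (-) for Olfr958 and chr9:40074047-40074296 (+) for Olfr982. For Olfr958 and Olfr982 the annotated start is a start codon, so their transcription starts may lie elsewhere. Capitals mark the homeodomain core TAAT on either strand (ATTA on the other).
Olfr922: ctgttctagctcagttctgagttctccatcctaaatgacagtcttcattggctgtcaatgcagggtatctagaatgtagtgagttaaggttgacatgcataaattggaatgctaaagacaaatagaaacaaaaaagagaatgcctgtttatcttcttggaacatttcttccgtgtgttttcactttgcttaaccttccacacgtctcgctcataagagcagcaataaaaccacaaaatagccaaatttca
Olfr958: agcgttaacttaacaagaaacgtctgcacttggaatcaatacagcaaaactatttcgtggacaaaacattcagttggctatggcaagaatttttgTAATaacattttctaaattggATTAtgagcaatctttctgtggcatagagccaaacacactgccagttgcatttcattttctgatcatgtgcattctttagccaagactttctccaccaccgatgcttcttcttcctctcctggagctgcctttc
Olfr982: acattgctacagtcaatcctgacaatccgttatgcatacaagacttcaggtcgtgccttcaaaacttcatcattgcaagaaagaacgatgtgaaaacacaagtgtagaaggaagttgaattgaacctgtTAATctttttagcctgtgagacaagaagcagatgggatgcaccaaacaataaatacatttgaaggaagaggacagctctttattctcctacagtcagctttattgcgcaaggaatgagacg
The Olfr958 window held 2 matches to TAAT, 155 and 134 bases before the start, the Olfr982 window held 1 at 121 bases, and the Olfr922 window held 0. Windows of the same length before annotated starts held TAAT in 54.9% of 32851 RefSeq entries and in 93.8% of 926 receptor entries. How many of those starts are likewise start codons was not counted. The 3 windows held no match to TAATTA, present in 17.9% of the receptor windows, or to the palindrome CCCNNGGG of the Ebf factors, present in 2.59% of them. The match for TAATTA would contain a match for TAAT.

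S100a5 itself averaged 17.0 in smoke GFP+, 16.5 in vehicle GFP+, 15.9 in smoke GFP- and 15.2 in vehicle GFP- cells on the log2 array scale. All 11 markers of mature olfactory neurons were above the level of the vomeronasal receptors in every group, with a lowest list mean of 16.17 and a highest of 16.24 on smoke GFP+ arrays. The lowest and highest were 16.16 and 16.27 on vehicle GFP+, 15.87 and 16.08 on smoke GFP-, and 15.87 and 15.98 on vehicle GFP- arrays. That level, the 95th percentile of 321 vomeronasal receptor genes on each array, lay between 6.14 and 6.78 and is used below as the limit under which a value has only a bound. Smoke GFP+ replicates 2 and 4 stood apart with sustentacular (supporting) cell list means of 12.3 and 12.7, against 11.6 to 11.7 in the other smoke GFP+ arrays and 11.4 to 11.9 in vehicle GFP+ arrays. The replicate 1 pools of both exposures had little Y-linked signal, with means over Uty, Eif2s3y and Kdm5d of 4.13 to 6.57, against 9.99 to 11.3 on all other arrays.

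Of the 4 receptors, Olfr923 alone had an order between the fractions that turned round with exposure. Its values were 9.86, 10.45, 10.56 and 10.41 in smoke GFP+ cells, against 7.98, 8.68, 8.74 and 8.90 in vehicle GFP+ cells. The 4 smoke arrays lay above the 4 vehicle arrays, and the difference of means was 1.74 (SE 0.25), a 3.35-fold difference. In GFP- cells the values were 8.34, 8.19, 8.94 and 9.25 after smoke, against 9.78, 10.19, 9.33 and 9.79 in vehicle. There the smoke arrays lay below all vehicle arrays, by 1.10 in the mean (log2 difference -1.10, SE 0.25). From high to low the group means were 10.32 ± 0.31 in smoke GFP+, 9.77 ± 0.35 in vehicle GFP-, 8.68 ± 0.50 in smoke GFP- and 8.58 ± 0.41 in vehicle GFP+ cells (SD, n = 4 each). Smoke GFP- and vehicle GFP+ overlapped, as did smoke GFP+ and vehicle GFP-.

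Within pools Olfr923 was higher in the GFP+ than in the GFP- cells of all 4 smoke pools, by 1.52, 2.26, 1.62 and 1.17. In vehicle pools the same difference was -1.80, -1.50, -0.59 and -0.89, so GFP+ cells were lower in all 4. The shift of the GFP+ minus GFP- difference between exposures was 2.84 (SE 0.36). Group means of other receptors turned round too, among them Olfr16, Olfr247, Taar7d and, on chromosome 9, Olfr875. Olfr875 averaged 8.85 in smoke GFP+ and 8.54 in smoke GFP- cells, against 7.03 and 9.32 in vehicle GFP+ and GFP- cells. Those of Olfr855, Olfr878, Olfr894 and Olfr976, also on chromosome 9 and named below, did not.

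Olfr958 differed most between the fractions and was lower after smoke in GFP- cells. It read 13.16, 13.15, 12.93 and 13.11 in smoke GFP+ cells, against 13.67, 13.67, 13.38 and 13.14 in vehicle GFP+ cells. These groups overlapped by a narrow margin, and the difference was -0.38 (SE 0.24), the only negative GFP+ difference among the 4 receptors. In GFP- cells it read 7.81, 7.78, 8.55 and 8.66 after smoke, against 10.10, 10.66, 9.83 and 9.50 in vehicle. All smoke arrays were below all vehicle arrays, with a difference of -1.82 (SE 0.24), 3.54-fold. The order of group means was vehicle GFP+ (13.46 ± 0.26), smoke GFP+ (13.09 ± 0.11), vehicle GFP- (10.02 ± 0.49) and smoke GFP- (8.20 ± 0.47; SD, n = 4 each), of which the first pair alone overlapped.

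Olfr982 had nearly the same level in both GFP+ groups and a lower level after smoke in GFP- cells. Its GFP+ values were 11.41, 10.97, 11.09 and 11.06 after smoke, against 11.08, 11.23, 10.79 and 10.87 in vehicle, overlapping groups with a difference of 0.14 (SE 0.24). Its GFP- values were 8.84, 8.0, 7.57 and 7.71 after smoke, against 9.75, 10.25, 9.80 and 9.36 in vehicle. These did not overlap, and the difference was -1.76 (SE 0.24), 3.40-fold. Group means were 11.13 ± 0.19 in smoke GFP+, 10.99 ± 0.20 in vehicle GFP+, 8.03 ± 0.57 in smoke GFP- and 9.79 ± 0.37 in vehicle GFP- cells (SD, n = 4 each).

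Olfr922, the neighbour of Olfr923 in gene order with no measured gene between them, was near or below the vomeronasal level in GFP- cells. It read 9.58, 9.25, 9.47 and 9.53 in smoke GFP+ cells, against 9.0, 8.68, 9.70 and 8.64 in vehicle GFP+ cells. The groups overlapped through vehicle replicate 3, and the difference was 0.45 (SE 0.23). In GFP- cells it read 5.14, 5.90, 5.26 and 5.93 after smoke, against 6.76, 6.76, 6.26 and 6.21 in vehicle. The fitted difference was -0.94 (SE 0.23) and the groups did not overlap, but 0 of 4 smoke arrays and 3 of 4 vehicle arrays exceeded the vomeronasal level. With the smoke values raised to that level and the vehicle values as read, the mean of Olfr922 was 0.24 lower on the log2 scale in smoke GFP- cells, 1.18-fold. This is no strict minimum, since 1 vehicle array also lay below the level. The order of its group means was smoke GFP+ (9.46 ± 0.15), vehicle GFP+ (9.01 ± 0.49), vehicle GFP- (6.50 ± 0.30) and smoke GFP- (5.56 ± 0.41; SD, n = 4 each), and the first pair overlapped. Without smoke pools 2 and 4 its GFP- difference was -1.29, and without both replicate 1 pools it was -0.71.

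**Figure D1:**
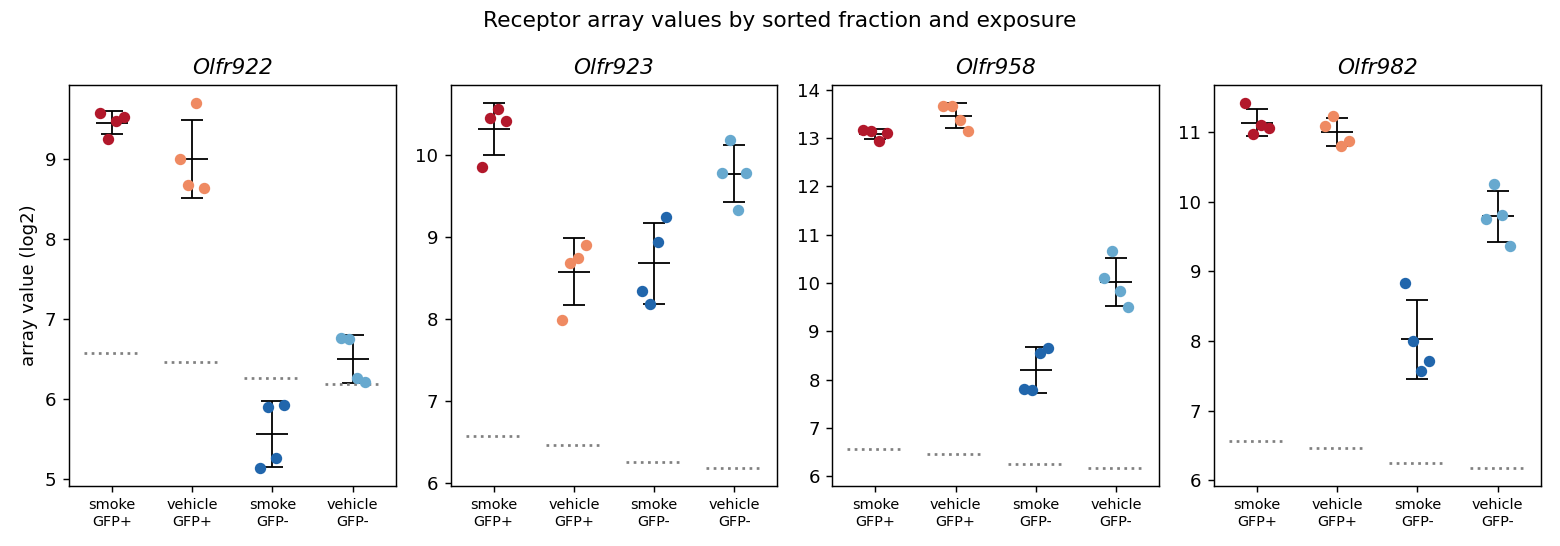
Array values (log2) of the 4 receptors on each array, in separate panels with separate vertical scales, for smoke GFP+, vehicle GFP+, smoke GFP- and vehicle GFP- cells. Points are single arrays, bars the mean and SD of 4 arrays, and dotted lines the group's vomeronasal receptor level; in GFP- cells each receptor's smoke arrays lie below its vehicle arrays, and Olfr922 lies under the dotted line in smoke GFP- cells and just above it in vehicle GFP- cells.

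In GFP- cells, then, the smoke arrays of all 4 receptors lay below the vehicle arrays, a pattern that 1.3% of all genes and 4.81% of odorant receptors had. For Olfr922 this separation rests on values near or below the vomeronasal level. With values raised to that level, its GFP- groups overlapped and the difference was -0.26 (SE 0.20). In GFP+ cells the groups did not overlap for 1 of the 4, Olfr923, which was higher, as were 1.66% of all genes and 5.55% of odorant receptors. Since the receptors were listed with these differences known, nothing is read from the counts. The immune cell list had array means of 12.5 to 13.7 in smoke GFP- cells, against 13.0 to 13.8 in vehicle GFP- cells, with 9 of 9 measured markers above the vomeronasal level in both. Of 8 marker lists of cell types, 1 did not overlap between smoke and vehicle in GFP- cells, the gland and respiratory list, with array means of 10.01 to 10.26 in smoke GFP- cells, against 10.31 to 11.12 in vehicle GFP- cells and all 5 measured markers above the vomeronasal level in both. The part of either list in the GFP- differences was not tested. Without the smoke pools 2 and 4, the smoke differences of Olfr923 were 1.63 in GFP+ and -1.13 in GFP- cells, those of Olfr958 -0.42 and -1.84, those of Olfr982 0.26 and -1.59, and that of Olfr922 in GFP+ cells 0.52. Without both replicate 1 pools they were 1.70 and -0.98 for Olfr923, -0.33 and -1.67 for Olfr958, 0.08 and -2.05 for Olfr982, and 0.41 for Olfr922 in GFP+ cells. No sign changed in either case.

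Averaged over both exposures, 3 of the 4 receptors were higher in GFP+ than in GFP- cells, in every pool. This contrast was tested with limma across all genes on all 16 arrays. Whether the choice of the 4 receptors used it is not known. Their p-values, limma or permutation, hold only if it did not. Olfr958 averaged 13.27 in GFP+ and 9.11 in GFP- cells, a difference of 4.16 (SE 0.17, adjusted p = 3.44e-12, limma) and a 17.9-fold difference. Olfr982 averaged 11.06 and 8.91 in GFP+ and GFP- cells, a difference of 2.15 (SE 0.17, adjusted p = 1.16e-08, limma), 4.45-fold. Olfr922 averaged 9.23 in GFP+ and 6.03 in GFP- cells, a fitted difference of 3.21 (SE 0.17, adjusted p = 6.89e-11, limma), and with GFP- values counted from the vomeronasal level it was at least 7.20-fold higher in GFP+ cells. Each of these 3 was higher in GFP+ cells in 8 of 8 pools, with an exact two-sided sign-flip permutation p of 0.00781, the smallest that 8 pools can give. With the pool as a block the adjusted p was larger, 4.64e-09 for Olfr958 and 1.55e-07 for Olfr922 (limma). For Olfr982 the highest adjusted p under any alternative was 1.04e-05 (limma). Olfr923 averaged 9.45 in GFP+ and 9.22 in GFP- cells and did not pass (difference 0.22, SE 0.18, adjusted p = 0.300, limma), being higher in GFP+ cells in 4 of 8 pools (exact two-sided permutation p = 0.680).

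Such a difference was common: 34.9% of all genes and 56.6% of odorant receptors were higher in GFP+ cells past the same threshold, and 17.8% and 23.4% were lower. The median of all genes was 0.17 in this contrast and 0.50 after each array was centred on its median. Relative to that median, Olfr922, Olfr923, Olfr958 and Olfr982 differed by 3.04, 0.06, 4.00 and 1.99 under both scalings. Centred in this way, Olfr923 passed the threshold against 0 (difference 0.56, adjusted p = 0.00704, limma), and of the genes called 85.6% were higher in GFP+ cells in place of 66.2%. The fractions also differed in cell content. Median array means of the immune list were 8.45 and 8.44 in smoke and vehicle GFP+ cells, against 12.9 and 13.3 in GFP- cells. For immature neurons they were 12.6 and 12.6, against 13.6 and 13.6. The mature neuron list alone went the other way, with 16.2 and 16.2 against 15.9 and 15.9. The part of cell content in the averaged differences was not tested.

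The signed GFP+ minus GFP- difference within a pool was higher in smoke than in vehicle pools for Olfr958 and Olfr982 as well. For Olfr958 it was 5.35, 5.37, 4.38 and 4.45 in smoke pools, against 3.57, 3.00, 3.55 and 3.63 in vehicle pools. For Olfr982 it was 2.58, 2.97, 3.53 and 3.35 in smoke pools, against 1.33, 0.98, 0.99 and 1.52 in vehicle pools. Neither set of pools overlapped the other. The share of all genes whose pools separate in this way was not counted, so nothing is read from it, here or for Olfr923. For Olfr922 the within-pool difference was 4.44, 3.35, 4.21 and 3.60 in smoke pools, against 2.24, 1.93, 3.45 and 2.43 in vehicle pools, where vehicle pool 3 overlapped smoke pool 2. The shifts between exposures were 1.45 (SE 0.33) for Olfr958, 1.90 (SE 0.33) for Olfr982 and 1.39 (SE 0.33) for Olfr922, the last of them 0.71 when values below the vomeronasal level were raised to it and 1.82 without smoke pools 2 and 4. With no overlap within an exposure, GFP+ arrays lay above GFP- arrays for all 4 receptors in smoke pools, as for 16.3% of all genes and 44.1% of odorant receptors. They did so for 3 of the 4 in vehicle pools, as for 23.8% and 48.8%. In vehicle pools Olfr923 lay below, as did 15.1% of all genes and 17.7% of odorant receptors.

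**Figure D2:**
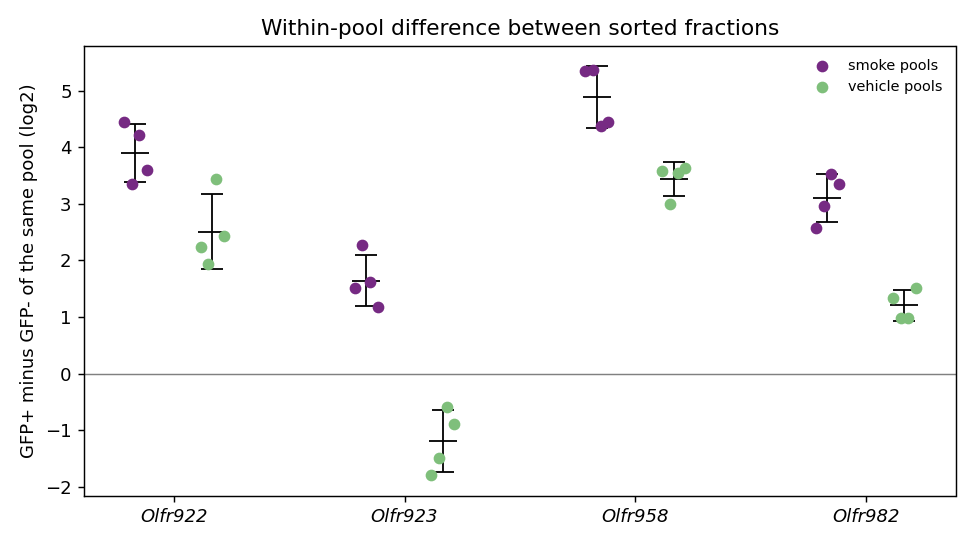
GFP+ minus GFP- difference (log2) of each receptor within each pool, for the 4 smoke pools (purple) and the 4 vehicle pools (green), with the mean and SD. Olfr923 is above 0 in all smoke pools (1.17 to 2.26) and below 0 in all vehicle pools (-1.80 to -0.59), while the other 3 receptors are above 0 in all 8 pools.

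The other receptors of the chromosome 9 cluster passed with smoke at shares close to those of all odorant receptors. The list held the 101 other measured genes Olfr832 to Olfr986 on that chromosome, and calls were made with limma over all genes, where 0.108% of all genes and 1.48% of odorant receptors passed in GFP+ cells, and 0.128% and 2.13% in GFP- cells. In GFP+ cells 1 of the 101 rose, Olfr878 (3.03, SE 0.32, adjusted p = 2.19e-04, limma), and 0 fell. The list's median was 0.05, against -0.05 for all receptors, and 17 of the 101 (16.8%) had an unadjusted p below 0.05, as did 17.9% of all receptors and 4.80% of all genes. In GFP- cells 0 of the 101 rose and 2 fell, Olfr894 (-2.13, SE 0.25, adjusted p = 0.00128, limma) and Olfr976 (-1.69, SE 0.29, adjusted p = 0.0229, limma). The median there was -0.05, against 0.16 for all receptors, and 23 (22.8%) had an unadjusted p below 0.05, as did 20.7% of all receptors and 5.72% of all genes. With no overlap between groups, smoke lay below vehicle in GFP- cells for 5 of the 101 (4.95%) and for 4.81% of all receptors. The 101 leave out the 4 receptors, which were taken as chosen by their smoke differences, while the shares of all receptors include them. The shares of the 101 therefore do not describe the cluster as a whole. The Olfr976 call was lost without vehicle GFP- replicate 1, 2, 3 or 4 (highest adjusted p = 0.10, limma) and without both replicate 1 pools.

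The GFP+ minus GFP- difference shifted upward with smoke in 4 of the 101 and downward in 0, where 0.174% of all genes and 2.87% of odorant receptors passed. They were Olfr878 (3.17, SE 0.45, adjusted p = 0.00366, limma), Olfr894 (2.97, SE 0.35, adjusted p = 6.83e-04, limma), Olfr855 (2.32, SE 0.39, adjusted p = 0.0170, limma) and Olfr875 (2.60, SE 0.49, adjusted p = 0.0438, limma). With the pool as a block, Olfr855 (adjusted p = 0.0763, limma) and Olfr875 (adjusted p = 0.0617, limma) did not pass. Olfr855 was also lost without smoke GFP+ replicate 2, and Olfr875 without any one of 11 arrays: smoke GFP+ 1, 2, 3 and 4, smoke GFP- 1, 2 and 3, vehicle GFP+ 1 and 2, and vehicle GFP- 2 and 4 (highest adjusted p = 0.122, limma). Both were lost without smoke pools 2 and 4 and without both replicate 1 pools. These 3 comparisons share arrays, so their calls are not separate evidence.

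**Figure D3:**
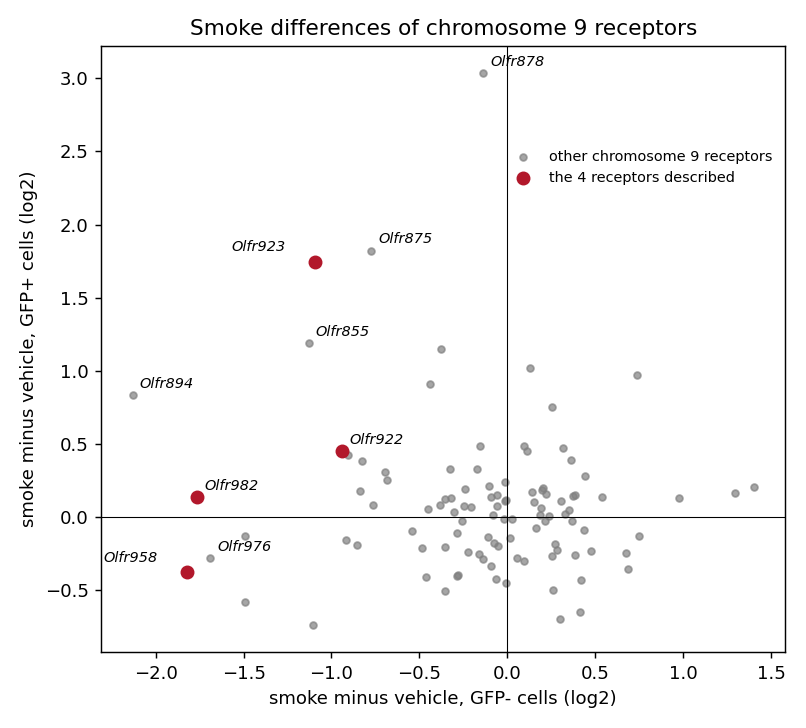
Smoke minus vehicle difference (log2) in GFP- cells (horizontal) and GFP+ cells (vertical) for the 4 receptors (red) and the 101 other chromosome 9 receptors (grey), with names for the 4 and for receptors past the threshold in any of the smoke comparisons. Olfr923 lies at -1.10 and 1.74, and Olfr958 and Olfr982 lie at -1.82 and -1.76 on the horizontal axis with vertical values of -0.38 and 0.14.

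The genes next to the 4 receptors were too few for the count of calls to say anything. The 2 measured genes on either side of each receptor made 12 other genes, all named Olfr except AW551984 and 1700001J11Rik, and 0 passed in a smoke comparison (limma, 0 in GFP+ cells with 0 at an unadjusted p below 0.05, 0 in GFP- cells with 1, and 0 for the shift with 1). Their GFP+ smoke differences were between -0.42 and 0.24, and their GFP- ones between -0.85 and 0.37. Olfr26, AW551984 and 1700001J11Rik averaged below the vomeronasal level in every group, Olfr981 in both GFP- groups and Olfr957 in smoke GFP+ cells. Their differences there are limited by that level. The lowest GFP- value was that of Olfr924, next to Olfr923, at -0.85 (adjusted p = 0.113, limma). Olfr924 read 7.60 to 7.93 in smoke GFP- cells, against 8.24 to 8.85 in vehicle GFP- cells, so its groups did not overlap, the only such case among the 12 in either fraction. The others were Olfr920, Olfr921 and Olfr26 around Olfr922 and Olfr923, Olfr44, Olfr957, Olfr959 and AW551984 around Olfr958, and Olfr981, 1700001J11Rik, Olfr983 and Olfr984 around Olfr982. Between Olfr923 and Olfr958, and between Olfr958 and Olfr982, lay 24 measured genes each.

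The RefSeq synonyms place the 4 receptors in different families of the MOR nomenclature, which groups receptors by protein similarity: Olfr922 is MOR161-3, Olfr923 is MOR164-2, Olfr958 is MOR224-9 and Olfr982 is MOR223-4. Of the 5 other measured members of family 161, 0 passed in GFP+ cells (1 at an unadjusted p below 0.05) and 0 in GFP- cells (3, all lower), with GFP- differences of -1.49 to -0.22, and Olfr875 was the one whose fraction difference shifted. The other 2 of family 164, Olfr147 and Olfr918, were named after their values were seen and had differences of 0.23 and 0.43 in GFP+ and -0.40 and -0.91 in GFP- cells, with 0 passing in either (0 and 1 at an unadjusted p below 0.05). In family 224, 0 of 9 passed in GFP+ cells (1 at an unadjusted p below 0.05) and 1 fell in GFP- cells, Olfr976, whose values there averaged 7.75 after smoke and 9.44 in vehicle. In family 223, 0 of 8 passed in GFP+ (0 at an unadjusted p below 0.05) or in GFP- cells (2), with GFP- differences of -0.92 to 0.68. These calls were made with limma over all genes. Averaged over exposures, all 9 of family 224, all 8 of family 223 and both of family 164 were higher in GFP+ cells past the threshold, while in family 161 3 were higher and 2 lower. In this contrast 56.6% of all odorant receptors were higher.

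The genes most like each receptor over the 16 arrays were odorant receptors except for Taar7d, and of them Olfr160 alone lies on chromosome 9. Likeness was the root mean square difference of log2 values after each gene was centred on its own mean. For Olfr923, whose own spread over the arrays was 0.81, they were Olfr16 (0.345), Olfr247 (0.40) and Taar7d (0.44), a trace amine-associated receptor. For Olfr958 (spread 2.21) they were Olfr506 (0.41), Olfr1099 (0.47) and Olfr160 (0.52), and for Olfr982 (spread 1.29) Olfr1257 (0.41), Olfr1496 (0.42) and Olfr1160 (0.45). For Olfr922 (spread 1.67) they were Olfr738 (0.40), Olfr705 (0.48) and Olfr1044 (0.50). The 4 receptors were less like each other: Olfr922 lay 0.745 from Olfr958, 0.774 from Olfr982 and 1.62 from its neighbour Olfr923, and Olfr923 lay 2.15 from Olfr958.

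**Figure D4:**
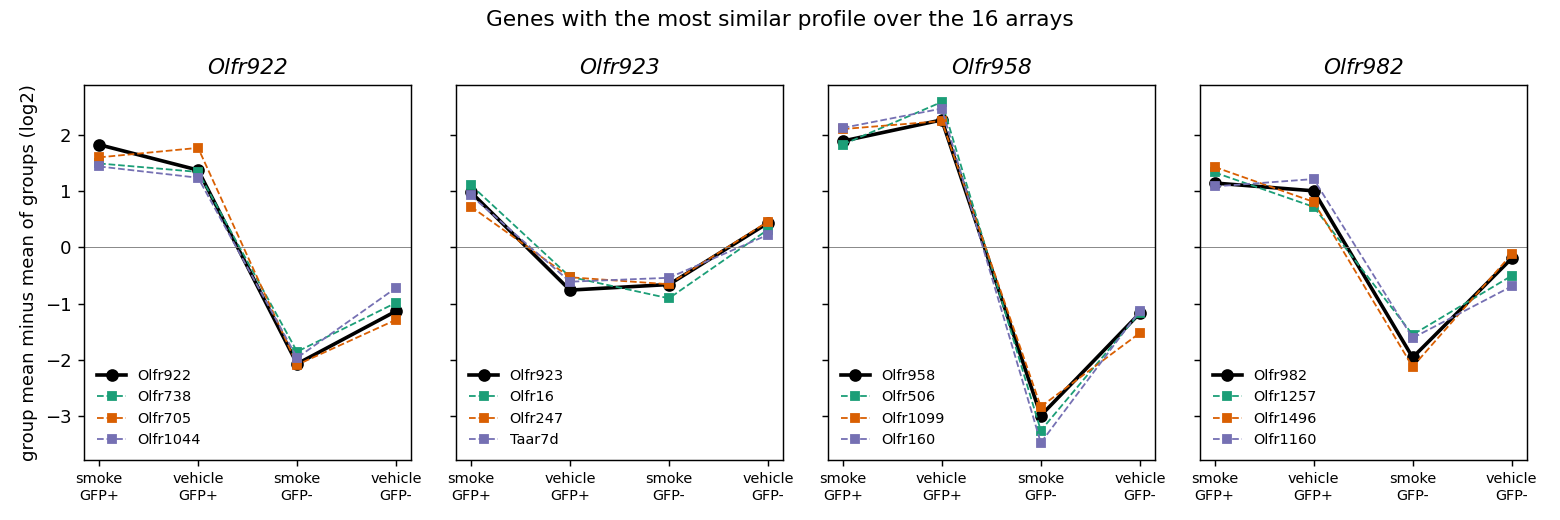
Group means of each receptor (black) and of its 3 most similar genes (dashed), each minus the mean of its 4 group means (log2), in the order smoke GFP+, vehicle GFP+, smoke GFP-, vehicle GFP-. Olfr923 and its nearest genes are high in smoke GFP+ and vehicle GFP- cells, while the other 3 receptors and theirs are high in both GFP+ groups and lowest in smoke GFP- cells.

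The downstream signalling genes were also examined. Of 16 measured genes of the olfactory transduction list, which includes the G protein gene Gnal, the adenylyl cyclase Adcy3 and the channel gene Cnga2, 0 passed in any smoke comparison (limma, and 0 at an unadjusted p below 0.05). Their smoke differences ran from -0.18 to 0.12 in GFP+ and from -0.04 to 0.15 in GFP- cells. Gnal averaged 17.58 and 17.72 in smoke and vehicle GFP+ cells, near the top of the scale. Stoml3, also on the list, averaged 18.58 in both, where the highest value of any array was 18.6, so little room was left for a rise. Averaged over exposures, 13 of the 16 were higher in GFP+ cells and 0 lower, against 34.9% and 17.8% of all genes. The list's median difference was 0.33 as deposited, where that of all genes was 0.17, and centring the arrays raises all genes alike.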

How the data were processed

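RNA of 16 sorted samples was measured on Clariom S arrays. The deposited values are on a log2 scale, from 2.29 to 18.6, and were used as given. The submitters' processing notes name Affymetrix Expression Console; its version and algorithm, and the build, were not stated there. The largest gap between sorted values of 2 arrays was 0.346, as after a joint normalization by the authors, and 4365 values lay above 16, so the scale may be stretched.

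Of 28846 probe sets, 19572 had 1 gene symbol, 0 had several and 9274 were controls or unnamed here. The probe set with the highest mean stood for a gene. Linear models with 4 group means were fitted to 19505 genes and all 16 arrays with limma 3.58.1 in R 4.3.3 (lmFit and eBayes, two-sided, Benjamini-Hochberg over all genes at 0.05), after a test on simulated data. The members, gene lists and most alternatives were chosen with earlier results of these data known. The named genes were the 4 receptors, for each its 3 most similar profiles and 2 measured neighbours on either side, and the chromosome 9 receptors and transduction genes past the threshold. Naming by protein identity was replaced by MOR families, since no protein sequences were used, a choice made after the data were seen. The fractions of a pool come from the same mice, and their residuals correlated with r of 0.05 to 0.22; the reported fit had no block. Exposures of the same number were not treated as paired, since not every pair's r was over 0.1, although the replicate 1 pools of both share low Y-linked signal. That cut cannot decide pairing, since some fractions of the same pool also fell below it. Alternatives were 2 other normalizations, a filter on dim genes, a floor, the mean of probe sets, replicate blocks, fits by fraction, a looser threshold and omitted arrays or pools. Figures were drawn with matplotlib 3.10.9.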

Additional observations from a re-analysis of the deposited data

Results flagged for a closer look

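Olfr923 moved in opposite directions in the 2 fractions, with every smoke GFP+ array above every vehicle GFP+ array and every smoke GFP- array below every vehicle GFP- array. The shift of its GFP+ minus GFP- difference between exposures was 2.84. This difference was not tested, since the receptor was listed with it known. Olfr16, Taar7d, Olfr1257 and Olfr1496, named above for similar profiles, had the same separation in both fractions. The share of all genes with it was not counted.

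Among 36 groups of 4 arrays (the 4 receptors and the 5 other named chromosome 9 receptors), 1 held an array far from the other 3 by Dixon's criterion, which chance meets in about 1 group of 20. Olfr855 read 11.94 in vehicle GFP+ replicate 4, against 10.56, 10.75 and 10.57 in the other vehicle GFP+ arrays.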

How the results depend on the processing

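Of 404 values of the 4 receptors under alternatives, 400 kept their direction and side of the threshold or moved by less than the replicate spread, and no sign changed. The other 4 were the Olfr922 GFP- difference with values floored at the vomeronasal level (-0.26), its fraction shift with that floor (0.71) and without smoke pools 2 and 4 (1.82), and the averaged Olfr923 difference, which passed with arrays centred on the median (0.56). Many of the 404 could not move by construction, so their count is no measure of robustness. Each receptor had a single probe set, and omitting an array of the other fraction leaves a smoke difference as it was. The dim-gene filter and the fits by fraction also leave the differences as they were. The groups are balanced, so neither replicate block could change an averaged difference. These stayed at 3.21, 0.22, 4.16 and 2.15 for Olfr922, Olfr923, Olfr958 and Olfr982 with the block by pool or by number, and no call of the 4 changed. Single omitted arrays gave averaged differences of 3.09 to 3.27, 0.14 to 0.32, 4.08 to 4.27 and 2.08 to 2.29.

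Counts over all genes moved more. Centring gave 17072 genes (10274 as deposited) for the averaged fraction contrast. In GFP- cells 25 genes became 8 with the fraction fitted alone, 7 without smoke pools 2 and 4, 14 without both replicate 1 pools (chosen after seeing the data) and 13 to 28 with single arrays omitted (16 without smoke GFP- 2, 13 and 14 without vehicle GFP- 1 and 2). Single arrays omitted gave 14 to 27 genes in GFP+ cells, 25 to 37 for the shift and 9502 to 10288 for the averaged contrast. Without smoke pools 2 and 4, 21 became 5 in GFP+ cells and 34 became 9 for the shift, where fewer arrays enter. Of the chromosome 9 list, the 1 GFP+ call became 2 with the replicate block by number, with the fraction fitted alone or with the floor and 3 at an adjusted p of 0.10, and calls numbered 1 to 3 with single arrays omitted (2 without vehicle GFP- 3 or 4, 3 without vehicle GFP+ 4). GFP- calls were 1 to 3 with single arrays omitted (1 when any one vehicle GFP- array was omitted) and 1 without both replicate 1 pools. The 4 shift calls became 2 with the replicate block by pool, without smoke pools 2 and 4 or without both replicate 1 pools, and were 2 to 4 with single arrays omitted (2 without smoke GFP+ 2). Where fewer arrays do not account for a change by construction, the cause was not tested. By number, residuals of the same fraction correlated across exposures with r of 0.08 to 0.20 in GFP+ and -0.08 to 0.18 in GFP- cells; not all exceeded 0.1, so the numbers were not taken as pairs, and the data do not settle it.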
